A study of Mus musculus with 12 samples.

Results

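Lipolysis enzymes and their regulators were examined in interscapular brown adipose tissue, the heat-producing fat depot between the shoulder blades of rodents. The set was chosen by gene name and comprised Pnpla2, Pnpla3, Lipe, Mgll, Abhd5, Abhd6, G0s2, Hilpda, Ces1d and Lipa. These are 10 of the 54356 genes in the files. All 10 passed the filter on low counts, among 13876 genes tested. Polyadenylated RNA came from 12 male wild type C57BL/6N mice aged 20 weeks, of which 6 were labelled cold and 6 ctrl. Cold animals were read as those kept alone at 4 °C for 24 h before the tissue was taken. The ctrl animals carry that treatment text too. The husbandry text gives 22 to 24 °C and a 12 h light cycle, and says nothing of ctrl housing on the last day. If ctrl animals were not housed alone, single housing and cold cannot be told apart. The series description counts 3 cold animals, fewer than the labels, and the RNA extraction protocol speaks of eWAT although the tissue label is interscapular brown fat. Groups and tissue follow the labels, and each library is 1 animal with its own mouse number, by which animals are named here (cold 4, ctrl 2).

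Triglyceride in the lipid droplets of fat cells is broken down in steps. Adipose triglyceride lipase (Pnpla2) removes the first fatty acid, hormone-sensitive lipase (Lipe) acts on the diglyceride, and monoglyceride lipase (Mgll) frees the last fatty acid and glycerol. In brown fat, noradrenaline released by nerves during cold raises cAMP, and protein kinase A then phosphorylates droplet coat proteins and hormone-sensitive lipase, so that much of the control of lipolysis lies in the proteins and not in the amount of RNA. The fatty acids released are burned in mitochondria and also switch on uncoupling protein.

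The libraries held 16989585 to 31423954 estimated reads in cold animals and 15984872 to 26823491 in ctrl animals. The summed level of 8 brown adipocyte markers was 13596 to 16954 CPM (each count as a share of its TMM-scaled library total, on the usual CPM scale) in cold animals and 8986 to 14878 CPM in ctrl animals, and none of the 8 was at 0. Of these markers 4 were higher in cold (Ppargc1a, Elovl3, Dio2 and Cidea) and 0 lower. Ucp1, Ebf2, Adrb3 and Cox8b did not pass the threshold, and the log2 fold change of Cox8b was −0.52. Ucp1 made up most of the sum, at a mean of 10071 CPM in cold animals and 8629 CPM in ctrl animals. Skeletal muscle markers summed to 155 to 4544 CPM in cold animals and 110 to 1473 CPM in ctrl animals, with 0 of 10 markers past the threshold. Cold 15 had the highest mean log2 CPM of the muscle markers and was also the lowest cold animal for 7 of the 10 lipolysis genes. In tissue RNA, fewer cells of a type and less RNA per cell cannot be told apart.

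Of the 10 lipolysis genes, Mgll and Lipa were higher in cold animals, Pnpla3 was lower, and 7 did not pass an adjusted p of 0.05 (edgeR's quasi-likelihood test over all genes tested). Over all genes tested, 16.2% were called higher, 15.4% lower and 31.6% in either direction, so 3 of 10 members is a share close to that of all genes. With library totals in place of TMM scaling, 2895 genes were higher and 1409 lower, against 2246 and 2134 with TMM. The median log2 fold change of the members was −0.02 and that of all genes tested was −0.01. Summed over the 10 genes, the level was 7399 ± 546 CPM in cold animals and 7467 ± 546 CPM in ctrl animals (SD, n = 6 each). The cold and ctrl animals did not overlap for 2 members, Mgll and Lipa, both higher. Of all genes tested, 8.92% were higher and 7.37% lower without overlap, 16.3% in all.

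**Figure D1:**
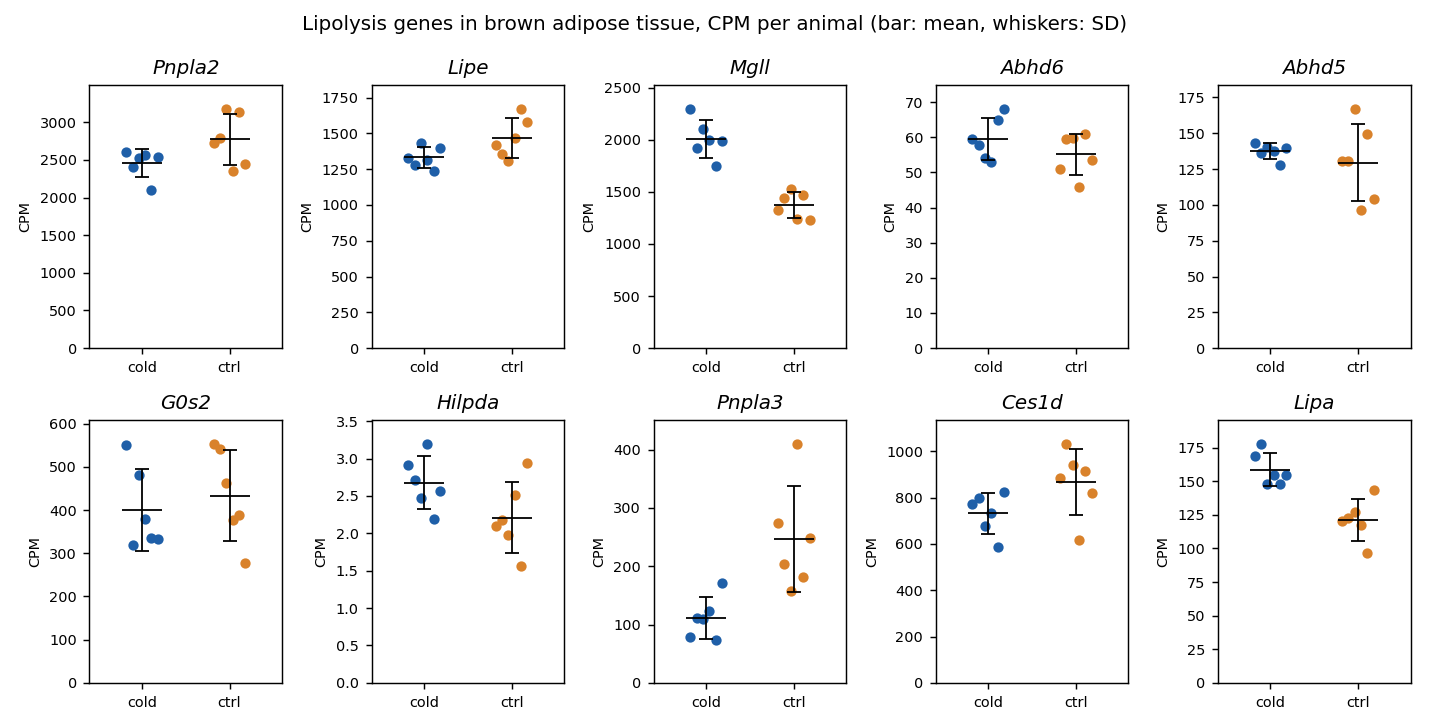
Level of each lipolysis gene in CPM (vertical axes from 0), 1 point per animal, with the mean as a bar and the SD as whiskers for 6 cold and 6 ctrl animals. The cold points for Mgll (1748 to 2298 CPM) and Lipa (148 to 178 CPM) all lie above the ctrl points, and for Pnpla3 5 of 6 cold points lie below every ctrl point.

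Pnpla2 (chr7:141455198-141460743, plus strand, GRCm38 as are all positions here), the lipase of the first step, was at 2099, 2532 and 2605 CPM in cold animals (lowest, median and highest) and at 2350, 2755 and 3179 CPM in ctrl animals. Cold 15 was below every ctrl animal and ctrl 2, 5, 6 and 10 were above every cold animal, while the other 5 cold animals overlapped with ctrl 9 and 14. Its log2 fold change, cold over ctrl, was −0.17 ± 0.09 (SE) with an edgeR adjusted p of 0.164. Lipe (chr7:25379527-25398710, minus strand), the diglyceride lipase, was at 1239, 1321 and 1430 CPM in cold animals and at 1309, 1442 and 1671 CPM in ctrl animals. The log2 fold change of Lipe was −0.14 ± 0.08 with an edgeR adjusted p of 0.190, and its groups overlapped too. The lipases of the first and the second step thus did not pass the threshold.

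Mgll (chr6:88724412-88828360, plus strand), the lipase of the last step, which also breaks down an endocannabinoid, was at 1748, 1994 and 2298 CPM in cold animals and at 1228, 1384 and 1526 CPM in ctrl animals. The lowest cold animal, cold 15, stood above the highest ctrl animal, ctrl 6. Mgll averaged 2009 ± 184 CPM in cold animals and 1373 ± 124 CPM in ctrl animals (SD, n = 6 each). Its log2 fold change was 0.55 ± 0.09 with an edgeR adjusted p of 1.18e-04. The highest of the genes annotated over Mgll, Gm44005 on the same strand, averaged 5.12 CPM in cold animals and 5.43 CPM in ctrl animals. Abhd6 (chr14:8002902-8056763, plus strand), a membrane-bound hydrolase that also accepts monoglycerides, was at 53.0, 58.6 and 68.1 CPM in cold animals and at 45.9, 56.5 and 60.8 CPM in ctrl animals. The ranges of Abhd6 overlapped, and its log2 fold change was 0.11 ± 0.09 with an edgeR adjusted p of 0.360. The 2 monoglyceride hydrolases thus differ in their calls, and the difference between their fold changes was not tested.

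The regulators of adipose triglyceride lipase did not pass the test. Abhd5 (chr9:122351608-122381524, plus strand), the protein that activates the lipase once it is let go by perilipin at the droplet, was at 128, 138 and 144 CPM in cold animals and at 96.1, 130 and 167 CPM in ctrl animals. The cold animals sat close together inside the range of the ctrl animals. The coefficient of variation of Abhd5 was 3.84% in cold animals and 20.6% in ctrl animals, and its log2 fold change was 0.09 ± 0.11 with an edgeR adjusted p of 0.600. In ctrl animals Abhd5, Pnpla2 and Mgll shared their extremes, since ctrl 6 and 10 were the highest and ctrl 9 and 14 the lowest for all 3.

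G0s2 (chr1:193272161-193273217, minus strand) encodes a small protein that binds and inhibits the lipase. It was at 319, 357 and 550 CPM in cold animals and at 278, 425 and 554 CPM in ctrl animals. The cold range lay wholly within the ctrl range, and the log2 fold change of −0.12 ± 0.18 had an edgeR adjusted p of 0.659. The gene lies within Lamb3, a laminin chain gene on the opposite strand, which averaged 26.7 CPM in cold animals and 3.91 CPM in ctrl animals. The sources do not say whether the counting used strand, so reads at the overlap may be shared. Hilpda (chr6:29272488-29275446, plus strand), a second small inhibitor that is induced by hypoxia, was at 2.19, 2.64 and 3.20 CPM in cold animals and at 1.56, 2.14 and 2.94 CPM in ctrl animals. Those levels rest on 31 to 90 reads per library, and the log2 fold change of 0.28 ± 0.17 had an edgeR adjusted p of 0.242.

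Pnpla3 (chr15:84167837-84187236, plus strand), a close relative of Pnpla2 that is known to follow the feeding state and to bind Abhd5, was at 73.4, 111 and 171 CPM in cold animals and at 158, 226 and 410 CPM in ctrl animals. All cold animals but cold 16 were below every ctrl animal. Pnpla3 averaged 111 ± 35.4 CPM in cold animals and 246 ± 91.1 CPM in ctrl animals (SD, n = 6 each). Its log2 fold change was −1.14 ± 0.26 with an edgeR adjusted p of 0.00558. Gm49513, on the same strand over the end of Pnpla3, averaged 0.0873 CPM in cold animals and 0.452 CPM in ctrl animals. Within ctrl animals the order of Pnpla3 ran nearly against that of Pnpla2, with ctrl 9 highest at 410 CPM and ctrl 6 lowest at 158 CPM.

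Ces1d (chr8:93166068-93197838, minus strand), a carboxylesterase of the endoplasmic reticulum that hydrolyses triglyceride, was at 586, 754 and 824 CPM in cold animals and at 617, 900 and 1033 CPM in ctrl animals. The groups overlapped, and its log2 fold change of −0.25 ± 0.12 had an edgeR adjusted p of 0.118. Without ctrl 9, the lowest ctrl animal, it was −0.33 with an edgeR adjusted p of 0.0182, so 1 library decides this call. Ces1d has close relatives in the Ces1 family, among which reads may be split, and its level is uncertain to that extent.

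Lipa (chr19:34492318-34527474, minus strand) encodes lysosomal acid lipase, which degrades cholesteryl esters and triglycerides delivered to lysosomes. It was at 148, 154 and 178 CPM in cold animals and at 96.3, 121 and 144 CPM in ctrl animals. Every cold animal stood above every ctrl animal, and the closest pair was cold 11 and ctrl 14. Lipa averaged 159 ± 12.2 CPM in cold animals and 121 ± 15.4 CPM in ctrl animals (SD, n = 6 each). Its log2 fold change was 0.39 ± 0.09 with an edgeR adjusted p of 0.00293.

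**Figure D2:**
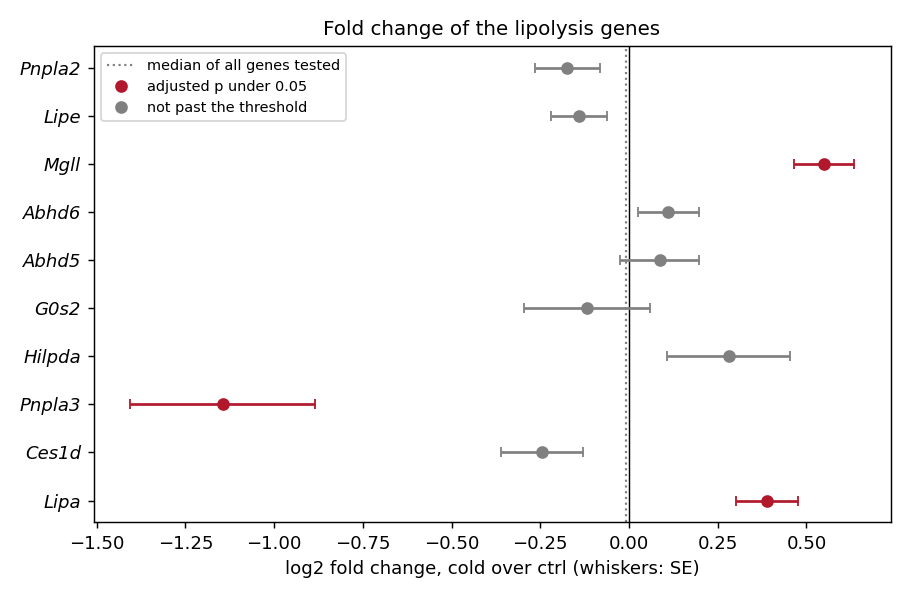
Log2 fold change of each lipolysis gene, cold over ctrl, from edgeR with whiskers of 1 SE, and the median of all genes tested as a dotted line. Mgll (0.55) and Lipa (0.39) lie above 0 and Pnpla3 (−1.14) below, in red for an adjusted p under 0.05, and the other 7 genes lie between −0.25 and 0.28.

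With the muscle marker level as a covariate, the log2 fold change was 0.57 for Mgll, 0.42 for Lipa and −1.12 for Pnpla3, and all 3 passed the threshold. Cold 15 had the highest and ctrl 2 the lowest TMM factor (1.11 in cold 15 and 0.858 in ctrl 2). With both left out, the log2 fold change was 0.58 for Mgll, 0.41 for Lipa and −1.02 for Pnpla3. The part of the 4 brown adipocyte markers called higher in these differences was not tested. The labels name no batch.

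Levels of different genes were set side by side as RPKM, that is CPM divided by transcript length in kilobases, summed over the transcripts of a gene. In cold animals the order was Pnpla2 at 1310 RPKM, Mgll at 549, Lipe at 542, G0s2 at 459, Ces1d at 371, Pnpla3 at 134, Abhd5 at 68.7, Lipa at 53.5, Abhd6 at 29.9 and Hilpda at 2.72 RPKM. In ctrl animals it was Pnpla2 at 1475 RPKM, Lipe at 607, G0s2 at 498, Ces1d at 442, Mgll at 378, Pnpla3 at 308, Abhd5 at 68.7, Lipa at 40.8, Abhd6 at 29.1 and Hilpda at 2.25 RPKM. Pnpla2 was the highest in every animal of both groups. The ranges of neighbours from Mgll to Ces1d in the cold order, and from Lipe to Pnpla3 in the ctrl order, overlapped. Within animals, the order of these pairs held in 2 to 5 cold animals and in 4 to 5 ctrl animals, never in a whole group. Differences between neighbours were not tested. Much of the Pnpla3 level came from the 303-nt Pnpla3-202, and Pnpla3-201 alone was at 70.0 RPKM in cold animals and 151 RPKM in ctrl animals.

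**Figure D3:**
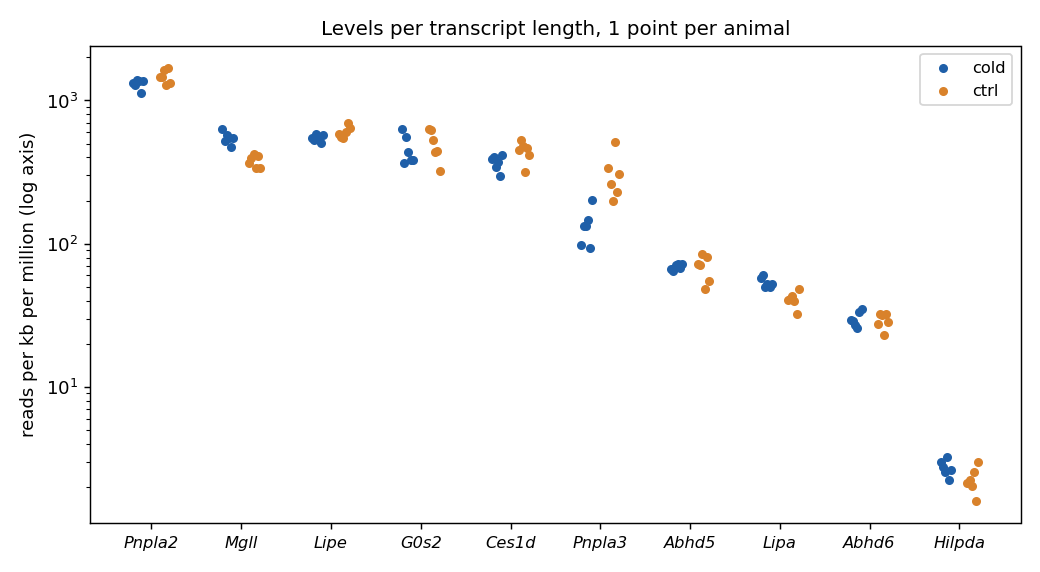
Level of each lipolysis gene per transcript length, in RPKM on a log axis, 1 point per animal, for 6 cold and 6 ctrl animals. Pnpla2 stands highest, with group means of 1310 in cold and 1475 in ctrl animals, and Hilpda lowest, with 2.72 in cold and 2.25 in ctrl animals. By group mean Mgll has rank 2 in cold animals and rank 5 in ctrl animals, but it was above Lipe in only 2 of 6 cold animals.

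Relative to Pnpla2 and Lipe, Mgll was at a higher level in cold animals. The ratio of Mgll to Pnpla2 RPKM was 0.419 ± 0.0278 in cold animals and 0.257 ± 0.0117 in ctrl animals (SD, n = 6 each). The ratio of Mgll to Lipe RPKM was 1.01 ± 0.0775 in cold animals and 0.628 ± 0.0928 in ctrl animals (SD, n = 6 each). Neither ratio overlapped between the groups, and both rest on the Mgll difference already given. The ratio of Lipe to Pnpla2 was 0.415 in cold animals and 0.416 in ctrl animals, that of the inhibitor G0s2 to Pnpla2 was 0.350 in cold animals and 0.338 in ctrl animals, and that of the activator Abhd5 to Pnpla2 was 0.0526 in cold animals and 0.0462 in ctrl animals. All 3 of these ratios overlapped between the groups.

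The files hold 51 annotated transcripts of the 10 genes, of which 37 passed the filter. The estimates split reads between similar transcripts and carry that uncertainty. For Pnpla2 and Abhd5, the transcript given the largest share of the gene was one annotated for nonsense-mediated decay. The bases where each leaves the annotated coding transcript are printed next because they set the reading frame, with capitals for the bases of the extra exon up to the stop codon or to its end (5′ to 3′, plus strand, GENCODE M21 on GRCm38).
Pnpla2-201: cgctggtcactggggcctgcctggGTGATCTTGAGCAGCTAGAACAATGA
Pnpla2-203: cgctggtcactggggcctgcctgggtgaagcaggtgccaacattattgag
Abhd5-201: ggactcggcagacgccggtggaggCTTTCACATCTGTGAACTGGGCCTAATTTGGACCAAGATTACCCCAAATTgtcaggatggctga
Abhd5-204: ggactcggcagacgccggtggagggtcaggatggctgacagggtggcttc

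In Pnpla2-201 the extra exon has 82 bases (chr7:141456568-141456649) and the frame ends after 70 codons, where the coding transcript Pnpla2-203 has 486. Pnpla2-201 held 66.8% ± 3.94 of the gene's reads per length in cold animals and 66.7% ± 2.15 in ctrl animals (SD, n = 6 each). In Abhd5-201 the extra exon has 50 bases (chr9:122363815-122363864) and the frame ends after 38 codons, where the coding transcript Abhd5-204 has 351. Abhd5-201 held 49.0% ± 4.51 of its gene in cold animals and 57.7% ± 2.67 in ctrl animals, without overlap between the groups, and Abhd5-204 held 32.5% ± 3.41 in cold animals and 25.7% ± 3.36 in ctrl animals (SD, n = 6 each). Transcript use of Abhd5 was not called (adjusted p 0.781 by edgeR's gene test and 0.413 by limma's diffSplice). The level of Abhd5-201 was not called either (edgeR adjusted p 0.436). How many transcripts of all genes had shares without overlap was not counted. The files hold no junction reads, so whether the extra exons were read was not tested. The transcripts printed also differ at the 3′ end, which lies at position 141460092 in Pnpla2-201 and 141460743 in Pnpla2-203. For Abhd5 it lies at position 122379825 in Abhd5-201 and 122381524 in Abhd5-204. Pnpla2-203 held only 4.00% of its gene in cold animals and 3.19% in ctrl animals. The coding transcript Pnpla2-202 had a larger share and ends at 141460094, near the end of Pnpla2-201, but has 1799 nt where Pnpla2-201 has 2048. Neither share is therefore a measure of the extra exon alone.

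Among the 37 transcripts tested, 2 were higher and 3 lower in cold animals by edgeR's test with adjustment over 30345 transcripts, where 6.21% of all transcripts tested were higher, 4.06% lower and 10.3% either. The higher ones were Mgll-204, with a log2 fold change of 0.60 and an edgeR adjusted p of 6.86e-04, and Abhd6-202, with 0.36 and 0.00808. Abhd6-202, one of the coding transcripts of Abhd6, was at 43.3, 44.6 and 51.8 CPM in cold animals and at 31.2, 36.4 and 39.5 CPM in ctrl animals, without overlap, although the gene as a whole was not called. The lower ones were Pnpla3-201 (log2 fold change −1.09, edgeR adjusted p 0.0207), Pnpla3-202 (−1.26, adjusted p 0.00450) and Pnpla2-207 (−0.76, adjusted p 0.00460). Pnpla2-207 is a short transcript annotated with a retained intron, at 5.88, 8.49 and 10.1 CPM in cold animals and at 12.7, 13.8 and 17.0 CPM in ctrl animals, again without overlap. It held only 0.689% of its gene in cold animals and 1.06% in ctrl animals. The share of all transcripts tested that did not overlap between the groups was not counted. Lipa-201, which held most of Lipa, was not called (log2 fold change 0.36, edgeR adjusted p 0.0529), although the gene as a whole was. It was at 121, 144 and 167 CPM in cold animals and at 85.9, 113 and 134 CPM in ctrl animals, with overlap. Its call lies at the threshold and changed between alternatives. It passed with limma-voom (adjusted p 0.0469) and did not with RLE factors (edgeR adjusted p 0.0508).

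The share of Mgll-204 in its gene was 96.8% ± 0.729 in cold animals and 94.1% ± 1.28 in ctrl animals, without overlap, and that of Abhd6-202 was 69.1% ± 4.06 in cold animals and 56.4% ± 6.88 in ctrl animals (SD, n = 6 each). Abhd6-201, the other coding transcript of size, held 26.1% in cold animals and 38.2% in ctrl animals. Lipe-202 held 72.0% ± 3.85 of Lipe in cold animals and 69.2% ± 2.32 in ctrl animals (SD, n = 6 each). Of the other transcripts with at least 10% of their gene, Lipe-208 held 11.2% in cold animals and 11.7% in ctrl animals, Pnpla2-202 held 13.0% in cold animals and 15.0% in ctrl animals, and Pnpla2-206 held 14.4% in cold animals and 12.7% in ctrl animals. Lipa-201 held 89.7% in cold animals and 93.2% in ctrl animals, and Ces1d-201 held 97.9% in cold animals and 97.2% in ctrl animals. Pnpla3-201 held 51.6% in cold animals and 49.1% in ctrl animals, with Pnpla3-202 holding the rest. G0s2-201 and Hilpda-201 held 100% of their genes in both groups. All of these ranges except that of Mgll-204 overlapped between the groups. Of the 8 members with at least 2 transcripts tested, edgeR's gene test of transcript use called 0, where it called 1.45% of 7233 genes. At an unadjusted p under 0.05 it gave 1 member, Mgll, whose edgeR adjusted p was 0.0720. Limma's diffSplice, which called 3.12% of the genes, also called 0 members, with 3 at an unadjusted p under 0.05. The Simes form of edgeR's test, which called 0.221% of the genes, called 0 members, with 1 at an unadjusted p under 0.05. The shares are therefore given as a description.

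**Figure D4:**
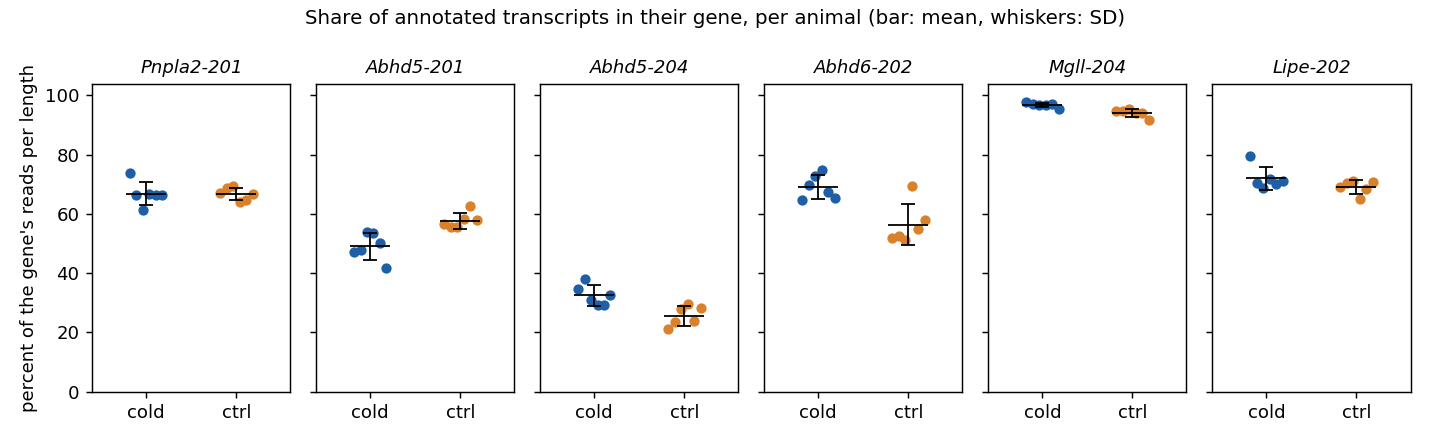
Share of 6 annotated transcripts in their gene's reads per length, in percent on an axis from 0, 1 point per animal with the mean as a bar and the SD as whiskers, for 6 cold and 6 ctrl animals. Abhd5-201 lies lower in cold animals (49.0%, against 57.7% in ctrl) and Mgll-204 higher (96.8%, against 94.1% in ctrl), both without overlap, while Pnpla2-201 is at 66.8% in cold and 66.7% in ctrl animals. With all animals, transcript use was not called for Abhd5 or Mgll.

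Promoter sequence was read for the 3 called genes from RefSeq (GRCm38.p6), as windows from 250 bases before to 50 bases after the annotated start. The windows are shown because Mgll and Lipa were higher and Pnpla3 was lower, and capitals mark matches to the 4 motifs searched on both strands.
Mgll promoter, chr6:88724162-88724461, plus strand: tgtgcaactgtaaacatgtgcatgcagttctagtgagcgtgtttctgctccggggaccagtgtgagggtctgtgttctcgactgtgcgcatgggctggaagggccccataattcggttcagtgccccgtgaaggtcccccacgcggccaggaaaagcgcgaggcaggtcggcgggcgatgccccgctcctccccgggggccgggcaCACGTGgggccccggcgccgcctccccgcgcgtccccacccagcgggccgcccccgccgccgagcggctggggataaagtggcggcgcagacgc
Lipa promoter, chr19:34527425-34527724, minus strand: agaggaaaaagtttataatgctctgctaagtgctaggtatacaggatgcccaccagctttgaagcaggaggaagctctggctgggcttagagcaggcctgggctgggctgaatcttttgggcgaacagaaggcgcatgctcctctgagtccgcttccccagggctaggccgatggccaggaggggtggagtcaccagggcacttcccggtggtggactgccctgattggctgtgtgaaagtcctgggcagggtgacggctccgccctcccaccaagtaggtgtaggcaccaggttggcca
Pnpla3 promoter, chr15:84167566-84167865, plus strand: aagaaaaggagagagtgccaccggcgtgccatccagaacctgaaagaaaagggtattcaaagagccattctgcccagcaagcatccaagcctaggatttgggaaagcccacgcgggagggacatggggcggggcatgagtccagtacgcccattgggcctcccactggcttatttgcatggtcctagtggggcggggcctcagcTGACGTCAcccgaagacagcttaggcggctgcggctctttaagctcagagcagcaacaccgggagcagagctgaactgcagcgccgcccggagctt

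The motifs were the cAMP response element TGACGTCA, the E-box CACGTG, the sterol response element TCACCCCAC and the DR1 element, a direct repeat of AGGTCA with 1 base between. They do not overlap in these windows. The Mgll window shown held an E-box that begins 44 bases before the start, and a second Mgll window (chr6:88724454-88724753, plus strand) held none of the motifs. The Pnpla3 window held a cAMP response element that begins 46 bases before it. The Lipa window held none of the 4 letter strings. Of 32851 promoter windows of this length, 7.15% held the E-box, 1.79% the cAMP response element, 0.551% the sterol response element and 0.0396% the DR1 element. RefSeq windows were matched for 9 of the 10 members (13 windows, not for Ces1d), and the other match was an E-box 155 bases before a start of Lipe. A match is a description of letters, and binding was not measured.

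Genes that act beside the lipases were counted in 5 lists, each read against the 31.6% called among all genes tested. Of 11 lipid droplet coat and fusion proteins, 5 were higher, 1 lower and 5 did not pass (edgeR), with a median log2 fold change of 0.30. Plin2, a coat protein of growing droplets, averaged 1783 ± 173 CPM in cold animals and 1158 ± 128 CPM in ctrl animals (SD, n = 6 each; log2 fold change 0.62, edgeR adjusted p 7.60e-05). Cidec, which fuses droplets, was higher (0.41, adjusted p 0.00102), as was Plin5, a coat protein that binds Pnpla2 and Abhd5 proteins (0.40, adjusted p 0.00610). Plin4, a coat protein of small droplets, was lower (−0.44, adjusted p 0.00420).

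Of 28 receptors and signalling proteins tested, 10 were higher, 5 lower and 13 did not pass (edgeR), with a median of 0.08. Hcar1, the lactate receptor that restrains lipolysis, averaged 3.72 ± 1.15 CPM in cold animals and 26.1 ± 6.95 CPM in ctrl animals (SD, n = 6 each; log2 fold change −2.79, edgeR adjusted p 4.76e-07). Npr3, the clearance receptor of natriuretic peptides, was higher at 464 ± 86.6 CPM in cold animals and 92.0 ± 28.5 CPM in ctrl animals (2.34, adjusted p 1.24e-06). Adcy3, the gene of an adenylyl cyclase that makes cAMP, was higher as well (2.15, adjusted p 6.92e-05). That value is a sum over its transcripts, which were not examined singly here. Prkar2a, a regulatory subunit of protein kinase A, was higher too (0.76, adjusted p 1.36e-05). These 4 genes were named for the smallest p in the list. For each of them the cold and ctrl animals were fully separate, as for 16.3% of all genes tested.

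Among 14 other intracellular lipid hydrolases tested of 22 listed, 4 were higher, 2 lower and 8 did not pass (edgeR), with a median of 0.06. Nceh1, a hydrolase of cholesteryl esters outside lysosomes, averaged 11.3 ± 2.78 CPM in cold animals and 2.85 ± 0.859 CPM in ctrl animals (SD, n = 6 each; log2 fold change 1.99, edgeR adjusted p 1.81e-06). Ces1f, a carboxylesterase of the same family as Ces1d, was lower (−1.62, adjusted p 3.08e-08), under the same uncertainty of split reads. Abhd2, a serine hydrolase (0.46, adjusted p 0.00149), and Daglb, a diglyceride lipase (0.45, adjusted p 0.0146), were higher.

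Of 12 lysosomal proteins listed around Lipa, 5 were higher, 1 lower and 6 did not pass (edgeR), with a median of 0.23. Lamp1, an abundant lysosomal membrane protein, averaged 998 ± 61.1 CPM in cold animals and 573 ± 54.7 CPM in ctrl animals (SD, n = 6 each; log2 fold change 0.80, edgeR adjusted p 1.85e-06). Scarb2, a lysosomal membrane receptor (0.82, adjusted p 7.47e-06), and Lamp2 (0.49, adjusted p 3.21e-04) were higher, and Npc2, which carries cholesterol inside lysosomes, was lower (−0.57, adjusted p 1.18e-04). Of 19 transcription factors linked to lipase genes, 5 were higher, 1 lower and 13 did not pass, with a median of −0.04. Epas1 (0.63, adjusted p 3.61e-04) and Hif1a (0.51, adjusted p 0.00268), both hypoxia-inducible factors, were higher, as was the fatty acid sensor Ppard (0.36, adjusted p 0.00313). Mlxipl, the carbohydrate response factor, was lower (−0.66, adjusted p 8.07e-04).

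**Figure D5:**
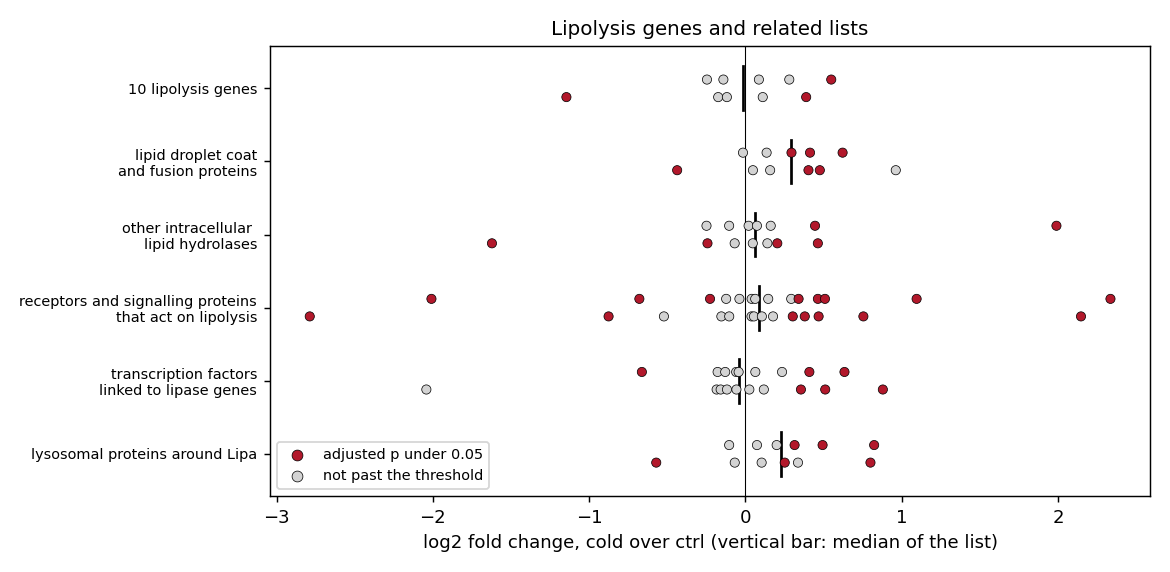
Log2 fold change, cold over ctrl, of the 10 lipolysis genes and of 5 related lists, 1 point per gene tested, red for an edgeR adjusted p under 0.05 and grey otherwise, with the list median as a vertical bar. The lipolysis genes have a median of −0.02 and the droplet coat list one of 0.30, and the signalling list reaches from −2.79 (Hcar1) to 2.34 (Npr3).

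The genes whose profile over the 12 animals was most like that of Mgll were sought by the root mean square difference of centred log2 CPM over 10197 genes. They were Pex6, a peroxisome biogenesis factor (0.0649), Khdrbs3, an RNA-binding protein (0.0753), and Cpt1b, which imports fatty acids into mitochondria (0.0768), where the median over all genes compared was 0.356. Being picked for the smallest difference, these genes lie below the median by choice. Centring kept the difference between cold and ctrl, so a similar fold change counts toward the match. The log2 fold change was 0.56 for Pex6, 0.55 for Khdrbs3 and 0.48 for Cpt1b, against 0.55 for Mgll. For Lipa the genes picked in this way included the phosphatase subunits Ppp1cb (0.0736) and Ppp2r1a (0.0820), where the median was 0.315. Mgll averaged 2009 CPM in cold animals and 1373 CPM in ctrl animals, and Cpt1b 1725 CPM in cold animals and 1236 CPM in ctrl animals.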

How the data were processed

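Polyadenylated RNA of brown adipose tissue from 12 mice was sequenced in 50 nt pairs as strand-specific libraries, per the labels' protocols. Salmon, cutadapt, bcl2fastq and GRCm38 are listed without versions in the submitters' processing notes, and the sources used here do not give the annotation release. The deposited files give estimated counts (expected counts, not normalized) for 140658 transcripts with their lengths, per the file headers. Of these, 140137 matched GENCODE M21 and the 521 others (0.0866% to 0.152% of reads) were left out. Gene sums of these estimates were rounded and kept where filterByExpr (minimum count 10) passed them. After TMM scaling, edgeR's quasi-likelihood test with robust fitting compared cold with ctrl, two-sided, at a Benjamini-Hochberg adjusted p of 0.05 over all genes. Transcripts were filtered, scaled and tested the same way on their own, so their CPM scale is not exactly that of genes. Transcript use was tested with diffSpliceDGE. On simulated data this test made more false calls than its threshold allows, so shares are described. RPKM used annotated transcript lengths. The biological coefficient of variation was 20.6%.

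The members, the gene lists and the tests were chosen with earlier results of these data known. Named were the 10 members, the 4 genes of smallest p in each list, transcripts with at least 10% of their gene and the 3 genes most like Mgll and Lipa, of which 1 is not reported here. Pnpla2-207 and the remarks on single animals were chosen after their values were seen. P-values set the difference between cold and ctrl against the spread between animals. Those of transcripts rest on rounded point estimates, without a separate term for how reads were split. Alternatives were RLE factors, library totals, DESeq2, limma-voom, no filter and a stricter filter (50 reads), an effective length offset, removal of mitochondrial genes, a muscle marker covariate, a term for mouse number (7 and below against 9 and above, a split that no label calls a batch), and each animal left out, and, added after seeing the data, ctrl 2 and cold 15 both left out. Versions were edgeR 4.0.16, DESeq2 1.42.0 and limma 3.58.1 under R 4.3.3. Tables and figures used pandas 2.3.3, SciPy 1.17.1, NumPy 2.4.6 and matplotlib 3.10.9 under Python 3.11.15.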

Additional observations from a re-analysis of the deposited data

How the results depend on the processing

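Mgll, Lipa and Pnpla3 kept their direction and passed the threshold in all 23 alternatives, with log2 fold changes of 0.51 to 0.64, 0.33 to 0.48 and −1.31 to −0.94. Their highest adjusted p-values were 5.00e-04, 0.0102 and 0.0227 (edgeR, DESeq2 or limma-voom). Ces1d passed in 1 alternative, without ctrl 9 (−0.33), so leaving out 1 animal gave 2 higher and 1 to 2 lower members. Over all genes, library totals gave 1409 lower and 2895 higher genes, and leaving out 1 animal gave 2023 to 2605 higher and 1836 to 2481 lower. Transcripts of members called higher numbered 4 with library totals and 4 with the mouse number term, and 2 to 3 higher and 3 to 4 lower with 1 animal left out. The 2 added in these settings were Abhd5-204 and Lipa-201. Pnpla3-201 did not pass without a filter (adjusted p 0.0607, edgeR) or without ctrl 2 and cold 15 (adjusted p 0.0860). Transcript use called 0 to 1 members with 1 animal left out: Mgll without cold 16 (adjusted p 0.0476, edgeR) and without ctrl 6 (adjusted p 0.0165). Over all genes it called 105, against 16 with Simes, 226 with limma's diffSplice, 55 without ctrl 2 and cold 15, and 63 (without cold 16) to 229 (without cold 4) with 1 animal left out. Signs changed for values that passed no test: G0s2 was 0.010 and G0s2-201 0.025 without ctrl 2 and cold 15, and Pnpla2-206, at 0.05 with all animals, was −0.090 with the mouse number term and −0.085 to 0.21 with 1 animal left out, below 0 without cold 11, cold 16, ctrl 5 or ctrl 6. The cause was not tested. No paired analysis was possible because the mouse numbers differ between the groups. The stricter filter removed Hilpda, which had 31 to 90 reads per library.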
